A study of Bombus terrestris with 25 samples.

Results

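Central carbon metabolism was followed through 36 genes of the 3861 in a count table from abdomens of buff-tailed bumble bee queens (Bombus terrestris). A gene was a member when its product name held a word for a sugar, an enzyme or an acid of these pathways, such as glucose, fructose, hexokinase, enolase, pyruvate, citrate or malate. The rule left out phosphoenolpyruvate carboxykinase, PEPCK. Glycogen was also a search word, and it matched 0 genes, as did phosphofructokinase, so the set holds no gene named for glycogen and none named for that step of glycolysis. By product name, 5 members act in glycolysis and gluconeogenesis and 1 brings pyruvate into the mitochondrion's cycle. A further 12 are grouped with the citric acid cycle and its carriers, cytosolic enzymes among them. Of the rest, 4 belong to the pentose phosphate pathway and sugar nucleotides, and 2 handle polyols and fructose. Another 7 are called glucose dehydrogenase [acceptor]. The remaining 5 matched a search word but act elsewhere, 1 of them in tyrosine breakdown and 1 in the cleavage of threonine.

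The RNA came from eviscerated abdomens that kept their fat bodies, 1 queen per library. The 5 groups held 5 queens each, and every queen had been mated at 5 to 10 days of age. Founders post diapause were egg layers of 4 months with a colony of their own, about a month after a cold period of 9 to 10 weeks at 4 °C. Founders post CO2 were egg layers of 1.5 months with a colony, about a month after being put under with pure CO2 on consecutive days. Diapausing queens, 3 months old by the sample labels, were taken at the end of the cold period. CO2-treated queens of 5 to 10 days were taken 24 h after that gas treatment, and mated queens of 5 to 10 days had neither treatment. Each of 5 genetic lines gave 1 queen to every group, except that another line stood in for 1 of them among mated queens. Age, feeding, egg laying and the time since the cold or the gas differ together between founders and the queens they are set against. Age, cold and feeding differ together between diapausing and younger queens. Within each comparison these cannot be told apart. CO2-treated and mated queens shared age and temperature.

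The fat body of insects does the work that liver and fat tissue do in vertebrates. It takes up sugar from the blood, stores it as glycogen and fat, and releases trehalose, and queens fill it before diapause and draw on it through the cold. Glucose enters glycolysis when hexokinase phosphorylates it, and the pathway ends in pyruvate, which pyruvate dehydrogenase turns into acetyl-CoA for the citric acid cycle. Fructose-1,6-bisphosphatase runs against glycolysis in the making of sugar. The pentose phosphate pathway draws on glucose-6-phosphate and yields NADPH and pentoses, the inputs of lipid and nucleotide synthesis.

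Of the 25 libraries, 3 stood apart. CO2-treated replicate 3, with 534806 counts, and mated replicate 2, with 586405, were shallow, where the other 23 had 2432559 to 4057781. These 2 libraries carry different labels and had the lowest chi-square per gene of any pair, 2.40, against 5.57 in the next pair. That measure grows with depth, so between 2 shallow libraries a low value does not show that they were more alike. Diapause replicate 1 lay toward the founders in the 30 members called between founders post diapause and diapausing queens. It was the diapause library nearest the founder side for 28 of them and within the founders' range for 12. The other 4 diapause libraries were within that range for 0 or 1 of these members. Only these members were scored, and only against founders, so nearness to the younger queens was not scored. The chi-square per gene of diapause replicate 1 with CO2-treated replicate 5, of the same genetic line, was 10.2, among the lowest of any pair. Comparisons are therefore given with all 25 libraries and, where it matters, without these 3. Because diapause replicate 1 is set apart here by the members' own values, counts of members without it are not independent of that choice. Levels are in CPM, the counts of the table scaled by its TMM-adjusted library sizes, and a run of 5 values follows replicates 1 to 5. A gene was called at an adjusted p below 0.05 over the 3793 genes tested. For fits that left out 1 library, counts of members are given without the share over all genes. Those counts therefore do not show a change particular to the members.

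The members were not equally abundant. Per kilobase of counted interval and averaged over the 25 libraries, fructose-1,6-bisphosphatase 1 had 1076 CPM per kb, transaldolase 986, enolase 973 and phosphoglycerate mutase 2 had 683. At the other end, the mitochondrial oxoglutarate/malate carrier had 3.13 CPM per kb and the glucose dehydrogenase LOC100643617 had 3.09. Together the 36 members took 25870 to 43750 CPM in founders post diapause, 16920 to 41560 in founders post CO2, 12440 to 21690 in diapausing queens, 11400 to 22820 in CO2-treated queens and 11730 to 25700 in mated queens. All 5 founders post diapause lay above all 5 diapausing queens in this sum. In bulk RNA, fewer cells of a type and less RNA per cell cannot be told apart.

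**Figure D1:**
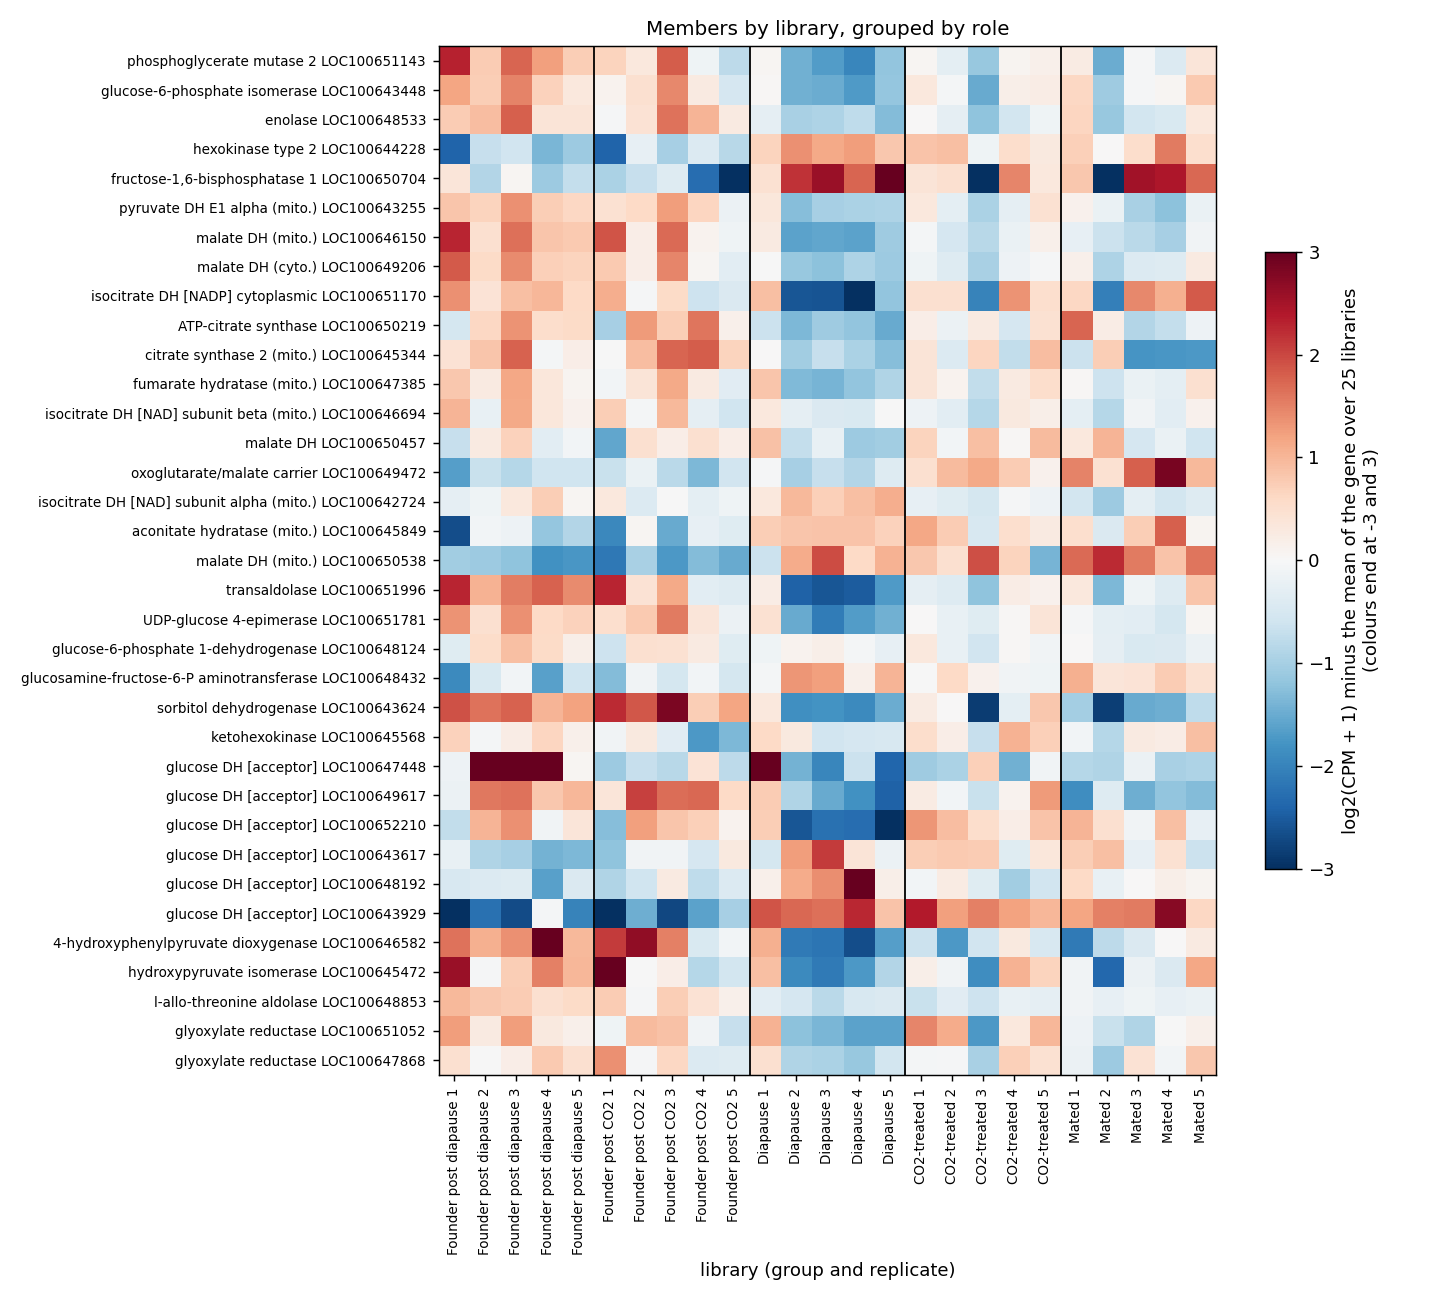
Level of each tested member (rows, ordered by role) in each library (columns, grouped by the 5 groups), as log2(CPM + 1) minus that gene's mean over the 25 libraries, with colours ending at -3 and 3. Most rows grouped with glycolysis and with the citric acid cycle are red in founders post diapause and blue in diapause replicates 2 to 5. Diapause replicate 1 differs from the other 4.

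Founders post diapause were set against diapausing queens to see how these genes stand once a queen has left the cold and founded a colony. LOC100650352 had too few counts to be tested. Of the other 35 members, 21 were higher and 9 lower in founders, 85.7% called, where 80.9% of all genes tested were called. The direction was less even than in the table as a whole: 60.0% of the tested members were higher, against 40.2% of all genes, and 25.7% were lower, against 40.6%. The 5 members that matched a search word but act elsewhere, all of them higher, are counted in these shares. The median log2 fold change was 1.24 over the members and 0.28 over all genes. In 18 of the 35 the groups did not overlap, where 48.7% of all genes tested did not. With the 3 libraries left out, 22 members were higher and 9 lower, where 84.7% of all genes were called, 43.2% higher and 41.5% lower.

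Marker lists for the fat body and for other cell types also differed between founders and the queens they were set against. The summed CPM of 8 muscle genes was 7024 to 16190 in founders post diapause, 2584 to 12480 in founders post CO2, 13480 to 35000 in diapausing queens, 16720 to 26640 in CO2-treated queens and 13320 to 36520 in mated queens. That of 29 oenocyte and epidermis genes was 32200 to 73500 CPM in founders post diapause, 20750 to 66770 in founders post CO2, 8030 to 21320 in diapausing queens, 14090 to 31350 in CO2-treated queens and 14100 to 31670 in mated queens. The 4 fat body genes, a vitellogenin, a lipid droplet protein and a pair of hexamerins, summed to 183 to 522 CPM in founders post diapause, 108 to 1164 in founders post CO2, 3978 to 12390 in diapausing queens, 280 to 19850 in CO2-treated queens and 253 to 46870 in mated queens, and all 4 were detected in every group. The most abundant of them was the hexamerin LOC100650745, so the sum may follow that gene more than the amount of fat body. The 17 gut genes summed to 822 to 41070 CPM in founders post diapause, 1913 to 8888 in founders post CO2, 333 to 4182 in diapausing queens, 747 to 17690 in CO2-treated queens and 280 to 3462 in mated queens. The 4 neuron genes summed to 38.7 to 70.5 CPM in founders post diapause, 28.7 to 128.5 in founders post CO2, 109.3 to 294.9 in diapausing queens, 161.2 to 298.3 in CO2-treated queens and 177.7 to 585.2 in mated queens. The 5 hemocyte genes summed to 753.8 to 1481 CPM in founders post diapause, 1131 to 1609 in founders post CO2, 1529 to 1918 in diapausing queens, 1476 to 2152 in CO2-treated queens and 1504 to 2135 in mated queens. The 4 ovary and germ line genes summed to 177.6 to 2335 CPM in founders post diapause, 1263 to 5944 in founders post CO2, 376.7 to 1475 in diapausing queens, 244.8 to 682.4 in CO2-treated queens and 270.2 to 710.1 in mated queens. Founders post diapause lay wholly above diapausing queens for oenocyte and epidermis genes and wholly below them for fat body, neuron and hemocyte genes. Founders post CO2 lay wholly above CO2-treated queens for ovary genes and wholly below them for muscle and neuron genes, and the other lists overlapped in these comparisons. No list was at 0 in any group, and 1 oenocyte and epidermis gene was at 0 in founders post CO2 and 1 in diapausing queens. The part of these cells in the results for the members was not tested.

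The 5 members of glycolysis and gluconeogenesis were all called, 2 lower and 3 higher, and in none did the groups overlap. Hexokinase type 2 (LOC100644228), which traps glucose in the cell, had 109.5, 365, 396, 228 and 278 CPM in founders post diapause, against 941, 1533, 1288, 1401 and 1023 CPM in diapausing queens. It fell by 2.17 ± 0.39 on the log2 scale (here and below ± SE, 5 queens a group, adjusted p = 7.29e-05), and every founder lay below every diapausing queen. Fructose-1,6-bisphosphatase 1 (LOC100650704) had 665, 283, 541, 242 and 318 CPM in founders and 717, 2335, 3126, 1746 and 4770 CPM in diapausing queens. It fell by 2.63 ± 0.89 (adjusted p = 0.00983), with a spread of nearly an order of magnitude among the diapausing queens and no overlap.

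The other 3 were higher. Enolase (LOC100648533), which makes phosphoenolpyruvate, had 3832, 4246, 7827, 2924 and 2924 CPM in founders post diapause and 1873, 1136, 1180, 1325 and 917 CPM in diapausing queens, a log2 fold change of 1.76 ± 0.41 (adjusted p = 0.000651). Phosphoglycerate mutase 2 (LOC100651143), the step before it, had 2322, 797, 1589, 1107 and 783 CPM in founders and 491, 172, 147, 121 and 208 CPM in diapausing queens, a log2 fold change of 2.53 ± 0.49 (adjusted p = 0.000145). Both were higher in every founder than in any diapausing queen, and diapause replicate 1 was the highest of its group for both. Glucose-6-phosphate isomerase (LOC100643448), which links glucose-6-phosphate to fructose-6-phosphate, had 1754, 1297, 2182, 1256 and 967 CPM in founders and 787, 284, 276, 236 and 346 CPM in diapausing queens. It rose by 1.95 ± 0.44 (adjusted p = 0.000504), again with no overlap.

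The ratio of these genes within a library does not depend on the scaling between libraries. Counts of enolase over those of hexokinase came to 10.5 to 35.0 in founders post diapause, 6.21 to 23.9 in founders post CO2, 0.741 to 1.99 in diapausing queens, 1.70 to 2.84 in CO2-treated queens and 0.940 to 3.67 in mated queens. Both founder groups lay above every queen of the other 3 groups in this ratio. Enolase was higher and hexokinase lower in every founder post diapause than in any diapausing queen. The separation of those groups in the ratio therefore follows from the values above and adds no support of its own. The fall of hexokinase was shared by 7 of its 7 counted intervals and the rise of enolase by 7 of 7.

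**Figure D2:**
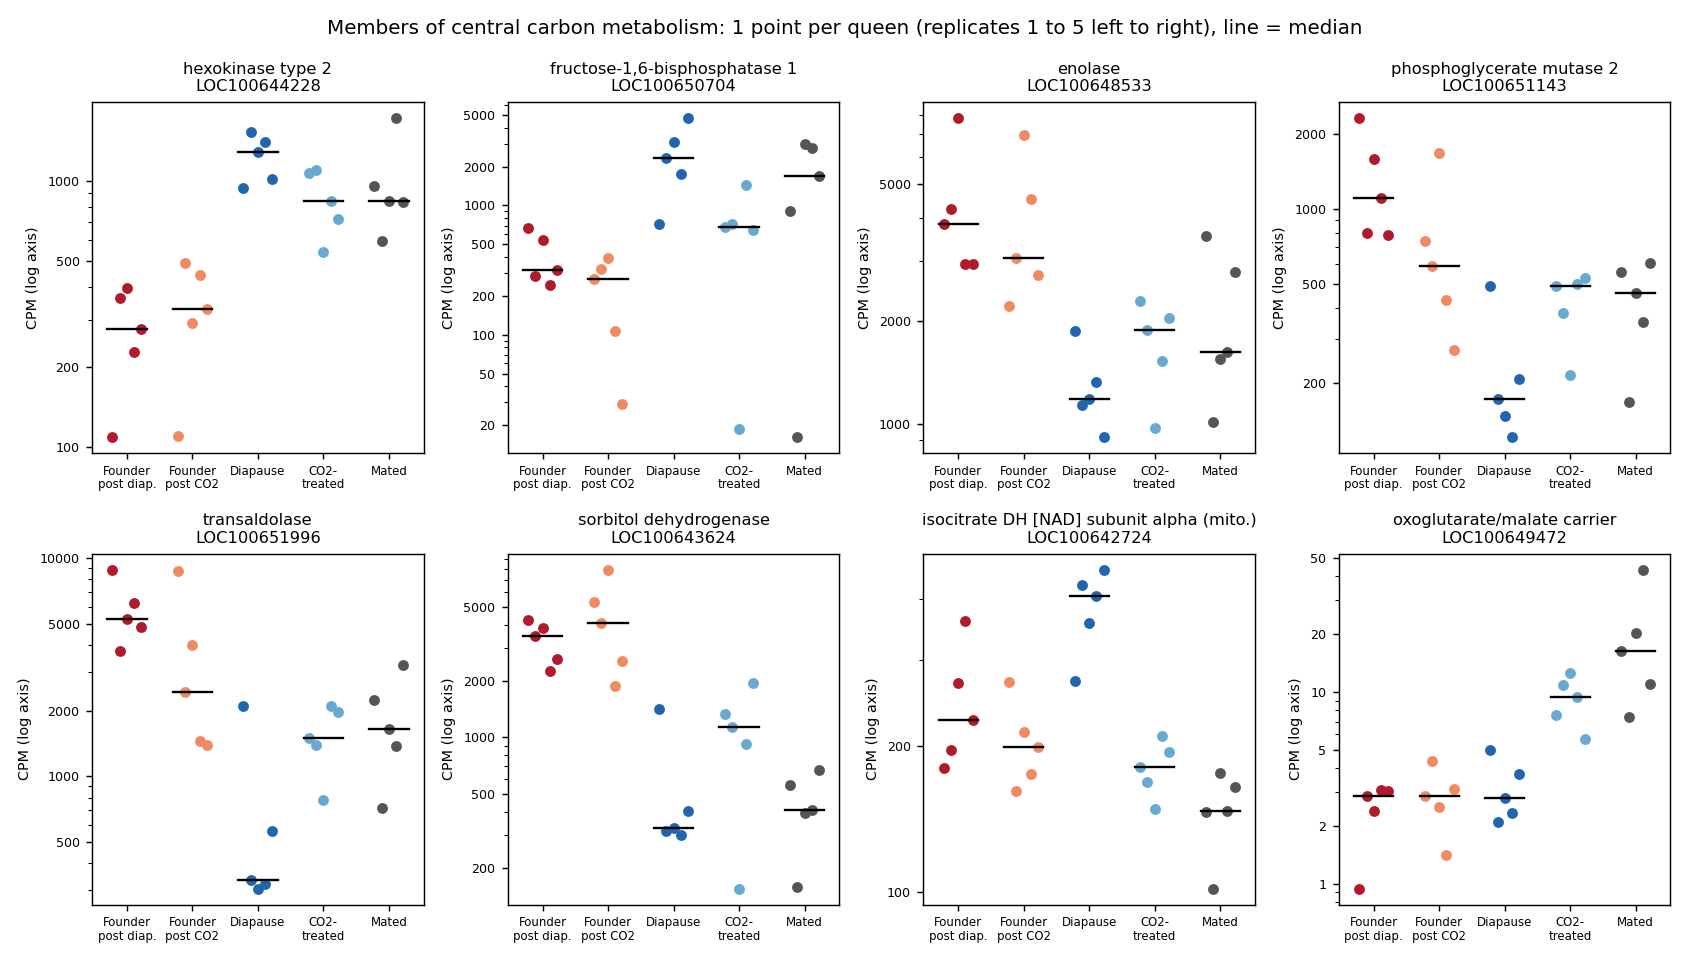
CPM of 8 members on log axes, 1 point per queen in the order of replicates, with a line at the group median. Hexokinase and fructose-1,6-bisphosphatase are lower in founders post diapause than in diapausing queens, enolase, phosphoglycerate mutase, transaldolase and sorbitol dehydrogenase are higher, and the isocitrate dehydrogenase alpha subunit is high in diapause.

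The E1 alpha subunit of pyruvate dehydrogenase (LOC100643255), the entry to the citric acid cycle, had 811, 716, 1176, 759 and 694 CPM in founders post diapause and 569, 187, 226, 232 and 236 CPM in diapausing queens. It rose by 1.52 ± 0.36 (adjusted p = 0.000755), and the groups did not overlap, although diapause replicate 1 stood far above the rest of its group.

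Of the 12 members grouped with the citric acid cycle and its carriers, 7 were higher in founders post diapause and 3 lower. The 7 include cytosolic enzymes outside the cycle itself: cytoplasmic malate dehydrogenase, cytoplasmic NADP isocitrate dehydrogenase and ATP-citrate synthase. Cytoplasmic malate dehydrogenase (LOC100649206), which interconverts malate and oxaloacetate, had 4457, 1832, 3330, 2020 and 1971 CPM in founders and 1221, 566, 524, 656 and 578 CPM in diapausing queens, a log2 fold change of 1.94 ± 0.38 (adjusted p = 0.000152). The mitochondrial form LOC100646150 rose by 2.27 ± 0.47, with 726 to 2533 CPM in founders and 169 to 625 CPM in diapausing queens. The least abundant form, the probable mitochondrial malate dehydrogenase LOC100650538, went the other way: it had 4.70, 4.47, 4.08, 2.29 and 2.50 CPM in founders, against 6.41, 24.3, 44.4, 16.7 and 23.0 CPM in diapausing queens. It fell by 2.67 ± 0.52 (adjusted p = 0.000145), with no overlap. The form LOC100650457 had 35.7 to 95.3 CPM in founders and 26.7 to 109 in diapausing queens, and its log2 fold change of 0.29 ± 0.42 did not pass (adjusted p = 0.524). Reads that fit more than 1 of these related genes could have been split between them, and the sources used here do not say how such reads were counted.

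Citrate synthase 2 (LOC100645344), which opens the cycle, had 459, 611, 1171, 326 and 391 CPM in founders post diapause and 343, 165, 211, 178 and 141.3 CPM in diapausing queens, a log2 fold change of 1.51 ± 0.50 (adjusted p = 0.00862). Aconitate hydratase (LOC100645849), the next enzyme, had 164, 994, 943, 471 and 572 CPM in founders and 1753, 1880, 1906, 1889 and 1707 CPM in diapausing queens. Citrate synthase rose while aconitase fell by 1.54 ± 0.47 (adjusted p = 0.00518), and the aconitase groups did not overlap. The 5 diapausing queens were close together in aconitase, and 9 of its 9 intervals were lower in founders. Fumarate hydratase (LOC100647385) had 476, 324, 603, 343 and 288 CPM in founders and 479.8, 107, 102, 119 and 144 CPM in diapausing queens, where only replicate 1 reached the founders' range. The log2 fold change was 1.09 ± 0.40 (adjusted p = 0.0156) and 1.80 without diapause replicate 1. That call was lost without diapause replicate 5 or founder post diapause replicate 3 (adjusted p up to 0.0649).

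The subunits of NAD isocitrate dehydrogenase parted. The alpha subunit (LOC100642724) had 179.5, 196, 269, 361 and 226 CPM in founders post diapause and 271, 427, 357, 405 and 460.0 CPM in diapausing queens. It fell by 0.64 ± 0.24 (adjusted p = 0.0164), and the ranges overlapped. The beta subunit (LOC100646694) rose by 0.71 ± 0.33 (adjusted p = 0.0489), a call lost on leaving out any of 13 single libraries. Counts of alpha over beta within a library were 0.338 to 1.10 in founders post diapause, 0.416 to 1.15 in founders post CO2, 0.828 to 2.12 in diapausing queens, 0.656 to 1.03 in CO2-treated queens and 0.573 to 0.728 in mated queens. The lowest diapause ratio was that of replicate 1, and the diapause median was 1.86.

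Among the enzymes that feed lipid synthesis, ATP-citrate synthase (LOC100650219), which splits citrate into acetyl-CoA in the cytosol, rose by 1.75 ± 0.49 (adjusted p = 0.00279), with 1135 to 4142 CPM in founders post diapause and 577 to 1039 in diapausing queens. Cytoplasmic NADP isocitrate dehydrogenase (LOC100651170), a source of NADPH, had 2048, 1044, 1472, 1566 and 1196 CPM in founders and 1459, 131, 130.1, 84.5 and 345 CPM in diapausing queens. Its log2 fold change was 1.77 ± 0.69 (adjusted p = 0.0235) with all libraries and 3.09 without diapause replicate 1, the only diapause library in the founders' range. The call was lost without any 1 of diapause replicates 2 to 5 or founder post diapause replicate 1. The oxoglutarate/malate carrier (LOC100649472), which exchanges these acids across the inner mitochondrial membrane, had 0.940, 2.87, 2.38, 3.06 and 3.05 CPM in founders and 4.95, 2.08, 2.80, 2.33 and 3.73 CPM in diapausing queens, a log2 fold change of -0.35 ± 0.44 (adjusted p = 0.463).

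Transaldolase (LOC100651996), of the non-oxidative arm of the pentose phosphate pathway, had 8887, 3763, 5267, 6232 and 4840 CPM in founders post diapause and 2108, 335, 306, 321 and 559.7 CPM in diapausing queens. Its log2 fold change of 3.00 ± 0.60 was the highest among the members (adjusted p = 0.000198), with no overlap, and 3.94 without diapause replicate 1. Glucose-6-phosphate 1-dehydrogenase (LOC100648124), which opens the oxidative arm, had 420.1, 791, 1010, 808 and 615 CPM in founders and 498, 583, 615, 516 and 455 CPM in diapausing queens. It was not called (0.45 ± 0.27, adjusted p = 0.122), and the ranges overlapped. Counts of transaldolase over those of glucose-6-phosphate 1-dehydrogenase were 4.76 to 21.2 in founders and 0.497 to 4.23 in diapausing queens, the highest diapause ratio being replicate 1. UDP-glucose 4-epimerase (LOC100651781), which interconverts UDP-glucose and UDP-galactose, rose by 1.88 ± 0.40 (2.64 without diapause replicate 1). The aminotransferase of the hexosamine pathway (LOC100648432, named glucosamine-fructose-6-phosphate aminotransferase), whose product leads to chitin, fell by 1.63 ± 0.35, with 39.5 to 143 CPM in founders and 145 to 379 in diapausing queens.

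Sorbitol dehydrogenase (LOC100643624), which turns the polyol sorbitol into fructose, had 4273, 3489, 3854, 2279 and 2617 CPM in founders post diapause and 1414, 315, 325, 301 and 404 CPM in diapausing queens. It rose by 2.58 ± 0.57 (adjusted p = 0.000443) and by 3.32 without diapause replicate 1. Every founder lay above every diapausing queen. Ketohexokinase (LOC100645568), which phosphorylates fructose, had 309 to 514 CPM in founders and 214 to 486 in diapausing queens, a log2 fold change of 0.41 ± 0.39 (adjusted p = 0.32).

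The 7 genes named glucose dehydrogenase [acceptor], of a family of flavin oxidoreductases whose Drosophila relative oxidises glucose outside glycolysis, did not move together. Of the 6 that were tested, 2 were higher and 3 lower in founders post diapause. LOC100643929 had 4.23, 25.9, 18.7, 122 and 30.8 CPM in founders and 468, 421, 399, 610.1 and 231 CPM in diapausing queens, and it fell by 3.40 ± 0.68 (adjusted p = 0.000187), the lowest value among the members. Founder replicate 4 was the highest founder, and without it the log2 fold change was -4.41. LOC100648192 had 8.46, 8.94, 9.19, 3.31 and 8.87 CPM in founders and 13.7, 27.8, 34.0, 225 and 14.0 CPM in diapausing queens, of which replicate 4 stood far above the rest. It fell by 3.02 ± 0.60 (adjusted p = 0.000187), or by 1.53 without diapause replicate 4, and the groups did not overlap. LOC100643617, of low counts and with 15% of them on a scaffold other than its main one, fell by 2.26 ± 0.53, or by 1.68 without diapause replicate 3. LOC100649617 rose by 1.83 ± 0.52 and LOC100652210 by 1.65 ± 0.61, and without diapause replicate 1 by 2.76 and 3.12. The call of LOC100652210 was lost without diapause replicate 5 or founder post diapause replicate 3.

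LOC100647448 had 7.99, 108, 234, 195 and 9.43 CPM in founders post diapause and 142, 2.78, 1.60, 5.43 and 0.932 CPM in diapausing queens, and it was not called (1.85 ± 0.99, adjusted p = 0.0849), although it passed with genetic line as a block in the fit (2.79, adjusted p = 0.0431). It was high in founder replicates 2, 3 and 4 and in diapause replicate 1 and at most 15.6 CPM in every other library of the series. LOC100650352, the untested member, had 0.470, 4.79, 13.3, 10.2 and 0.832 CPM in these founders and 7.28, 0.347, 0.400, 1.16 and 0.311 CPM in the diapausing queens, so it was high in the same 4 libraries. Each of the pair has 1 counted interval, and whether they share reads was not tested. LOC100647448 passed without the 3 libraries, at 5.35 (adjusted p = 4.05e-05).

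All 5 members that act outside central carbon metabolism were higher in founders post diapause. L-allo-threonine aldolase (LOC100648853), which cleaves threonine to glycine and acetaldehyde, had 228, 206, 197, 164 and 176 CPM in founders and 93.5, 81.6, 65.7, 83.3 and 86.0 CPM in diapausing queens. It rose by 1.24 ± 0.20 (adjusted p = 3.34e-05), the smallest p among the members. 4-hydroxyphenylpyruvate dioxygenase (LOC100646582), of tyrosine breakdown, had 800.3, 538, 667, 2050 and 504 CPM in founders and 546, 58.7, 56.0, 40.3 and 80.8 CPM in diapausing queens. Its log2 fold change was 2.54 ± 0.71 (adjusted p = 0.0027), and 3.97 without diapause replicate 1, which alone overlapped the founders. Hydroxypyruvate isomerase (LOC100645472) rose by 2.07 ± 0.78, or by 3.02 without diapause replicate 1, and was not called without founder post diapause replicate 1. The glyoxylate and hydroxypyruvate reductases rose by 1.24 ± 0.53 (LOC100651052, 2.22 without diapause replicate 1) and 0.90 ± 0.40 (LOC100647868). These reductase calls were lost on leaving out any of 7 and 10 single libraries.

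Founders post CO2 were set against CO2-treated queens to ask the same of queens that never went through the cold. Of the 35 tested members, 5 were higher and 4 lower, 25.7% called, where 28.3% of all genes tested were called, 14.8% higher and 13.6% lower. The median log2 fold change was 0.19 over the members and 0.07 over all genes, and 4 members had groups that did not overlap (16% of all genes). With the 3 libraries left out 3 members were higher and 6 lower, where 17.7% of all genes were called, 9.18% higher and 8.5% lower. The count was 5 without CO2-treated replicate 2 and 5 without founder post CO2 replicate 3.

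Hexokinase type 2 (LOC100644228) had 110.0, 492, 293, 444 and 331 CPM in founders post CO2, against 1071, 1100, 540.4, 841 and 719 CPM in CO2-treated queens. It fell by 1.36 ± 0.38 (adjusted p = 0.0142), with no overlap, and missed the threshold without CO2-treated replicate 2 (adjusted p = 0.0515). Enolase (LOC100648533) had 2205, 3051, 6989, 4529 and 2721 CPM in founders post CO2 and 2280, 1875, 971, 1529 and 2043 CPM in CO2-treated queens. It rose by 1.16 ± 0.40 (adjusted p = 0.0345), a call lost without the 3 libraries (0.93, adjusted p = 0.0814) and on leaving out any of 6 single ones. Fructose-1,6-bisphosphatase 1 (LOC100650704) had 268, 320.3, 394, 106 and 29.3 CPM in founders post CO2 and 677, 722, 18.7, 1442 and 642 CPM in CO2-treated queens, the 18.7 being the shallow library. Its log2 fold change of -1.65 ± 0.85 did not pass (adjusted p = 0.131). Without the 3 libraries it was -2.09 (adjusted p = 0.00977), with every founder then below every CO2-treated queen.

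Phosphoglycerate mutase 2 (LOC100651143) had 746, 590.2, 1672, 431 and 272 CPM in founders post CO2 and 489, 383, 216, 499.6 and 528 CPM in CO2-treated queens, and glucose-6-phosphate isomerase (LOC100643448) had 828, 1081, 2111, 926 and 544 CPM in the founders and 957, 742, 269, 878 and 907 CPM in CO2-treated queens. Neither was called, at 0.81 ± 0.47 and 0.55 ± 0.42. The pyruvate dehydrogenase subunit (LOC100643255) had 616, 686, 1086, 708 and 400.1 CPM in founders post CO2 and 559, 367, 234, 376 and 622 CPM in CO2-treated queens, a log2 fold change of 0.69 ± 0.35 (adjusted p = 0.124).

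In the citric acid cycle and its carriers 1 member was higher and 2 lower. The oxoglutarate/malate carrier (LOC100649472) had 2.87, 4.33, 2.52, 1.41 and 3.10 CPM in founders post CO2, below all of the 7.53, 10.8, 12.5, 9.43 and 5.68 CPM in CO2-treated queens, and fell by 1.65 ± 0.43 (adjusted p = 0.00984). The probable mitochondrial malate dehydrogenase LOC100650538 had 1.64, 4.95, 2.52, 3.75 and 3.10 CPM in founders post CO2 and 19.4, 15.3, 43.7, 17.6 and 3.46 CPM in CO2-treated queens, and fell by 2.54 ± 0.53 (adjusted p = 0.00185). CO2-treated replicate 5 lay within the founders' range. Mitochondrial malate dehydrogenase LOC100646150 rose by 1.26 ± 0.45 (adjusted p = 0.0414), but not without the 3 libraries (adjusted p = 0.0781) or any of 10 single ones, nor with genetic line as a block (adjusted p = 0.0628). Cytoplasmic malate dehydrogenase (LOC100649206) had 2148, 1415, 3400, 1287 and 999 CPM in founders post CO2 and 1140, 947, 636, 1111 and 1199 CPM in CO2-treated queens, a log2 fold change of 0.88 ± 0.37 (adjusted p = 0.0716).

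Citrate synthase 2 (LOC100645344) had 342, 648, 1145, 1215 and 544 CPM in founders post CO2 and 449, 258, 533, 204 and 648 CPM in CO2-treated queens, and aconitase (LOC100645849) had 275, 1099, 370.2, 890.1 and 818 CPM in the founders and 2341, 1771, 751, 1482 and 1275 CPM in CO2-treated queens. Their log2 fold changes of 0.90 ± 0.49 and -1.14 ± 0.46 did not pass (adjusted p = 0.15 and 0.0638). Cytoplasmic NADP isocitrate dehydrogenase (LOC100651170) had 1667, 772, 1176, 514 and 586 CPM in founders post CO2 and 1105, 1103, 195, 2000 and 1120 CPM in CO2-treated queens, and fumarase (LOC100647385) had 253, 350.4, 593, 325 and 212 CPM in the founders and 351, 289, 161, 325 and 389.8 CPM in CO2-treated queens. Their ranges overlapped, at -0.23 ± 0.68 and 0.19 ± 0.39. The isocitrate dehydrogenase alpha subunit (LOC100642724) had 270.0, 161, 213, 175 and 198 CPM in founders post CO2 and 180.4, 169, 148, 209 and 194 CPM in CO2-treated queens, a log2 fold change of 0.17 ± 0.23.

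Transaldolase (LOC100651996) had 8782, 2434, 4020, 1453 and 1392 CPM in founders post CO2 and 1505, 1393, 784, 2106 and 1980 CPM in CO2-treated queens. Founder replicates 1, 2 and 3 were above every CO2-treated queen and replicates 4 and 5 within their range, and the log2 fold change of 1.22 ± 0.57 did not pass (adjusted p = 0.0979). Glucose-6-phosphate 1-dehydrogenase (LOC100648124) had 349, 754, 738, 651 and 421 CPM in founders post CO2 and 675, 464, 364, 553 and 502 CPM in CO2-treated queens, a log2 fold change of 0.19 ± 0.27. Sorbitol dehydrogenase (LOC100643624) had 5303, 4085, 7933, 1882 and 2564 CPM in founders post CO2 and 1342, 1133, 155, 917 and 1962 CPM in CO2-treated queens, and it rose by 1.98 ± 0.56 (adjusted p = 0.0141). That call was lost without founder post CO2 replicate 3 (adjusted p = 0.0578).

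The glucose dehydrogenase LOC100643929 had 3.28, 45.2, 18.4, 40.6 and 62.8 CPM in founders post CO2 and 668, 299, 364, 294 and 252 CPM in CO2-treated queens. It fell by 3.46 ± 0.68 (adjusted p = 0.00129), where it fell by 3.40 ± 0.68 after diapause, and the groups overlapped by neither route. LOC100648192 had 6.15, 7.74, 15.1, 6.80 and 9.02 CPM in founders post CO2 and 11.6, 14.6, 9.37, 5.46 and 7.90 CPM in CO2-treated queens, a log2 fold change of -0.13 ± 0.58. Threonine aldolase (LOC100648853) had 197, 113, 196, 158 and 129.9 CPM in founders post CO2, all above the 72.5, 91.3, 74.96, 99.5 and 96.8 CPM in CO2-treated queens, and rose by 0.86 ± 0.20 (adjusted p = 0.00465). 4-hydroxyphenylpyruvate dioxygenase (LOC100646582) had 1101, 1646, 739.6, 188 and 244 CPM in founders post CO2 and 165, 77.7, 173, 314 and 184 CPM in CO2-treated queens. It rose by 2.10 ± 0.70 (adjusted p = 0.0297), a call lost on leaving out any of 8 single libraries. The remaining 13 tested members were not called, and their log2 fold changes ran between -0.94 ± 0.39 for ketohexokinase (LOC100645568) and 1.09 ± 0.51 for the glucose dehydrogenase LOC100649617.

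The founder comparisons share no library. Of the members called, 8 were called in the same direction by both routes, 5 higher and 3 lower, and 0 in opposite directions. They made up 26.7% of those called after diapause and 88.9% of those called after CO2, where the same shares over all genes were 31.9% and 90.9%. The higher ones were enolase, mitochondrial malate dehydrogenase LOC100646150, sorbitol dehydrogenase, threonine aldolase and 4-hydroxyphenylpyruvate dioxygenase. The lower ones were hexokinase, malate dehydrogenase LOC100650538 and glucose dehydrogenase LOC100643929. Of the calls made with the 3 libraries left out, 7 were shared, and the same share over all genes is not given here.

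**Figure D3:**
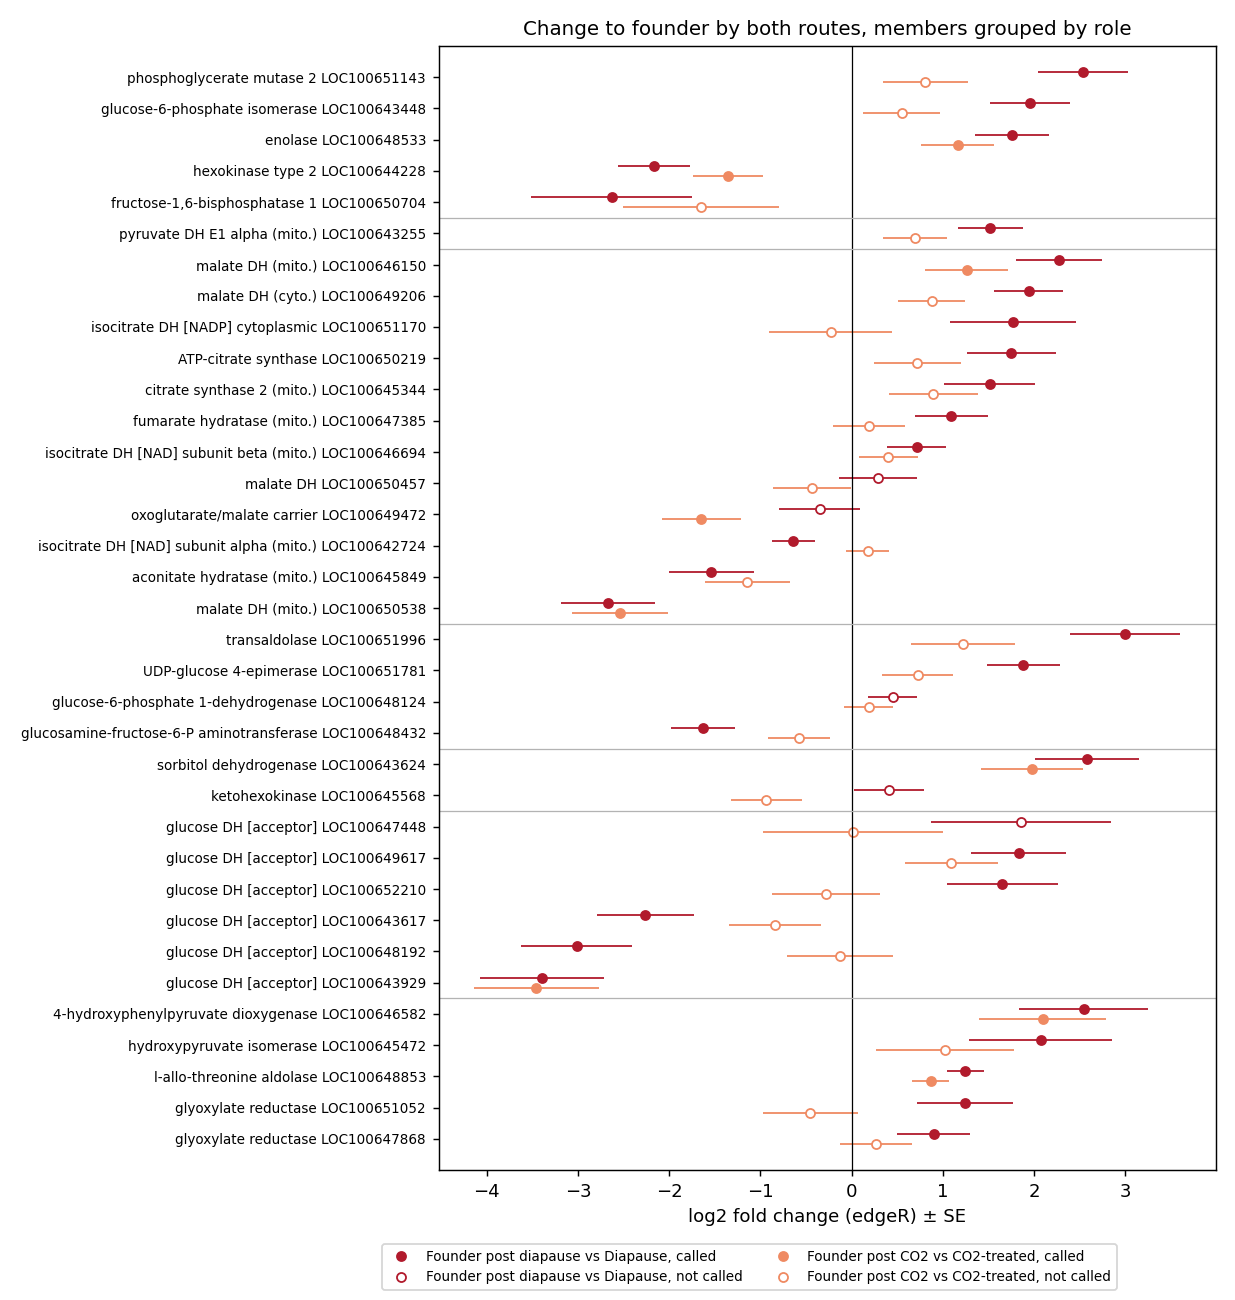
Log2 fold change ± SE of each tested member in founders post diapause against diapausing queens and in founders post CO2 against CO2-treated queens, with filled points for adjusted p below 0.05 and lines between roles. Hexokinase, malate dehydrogenase LOC100650538 and glucose dehydrogenase LOC100643929 are filled on the left for both routes, and most points of the diapause route lie farther from 0.

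Whether the change to founder differed between the routes was tested as its own contrast, the change after diapause less the change after CO2. With edgeR and all 25 libraries 0 of 35 members were called, where 2.43% of all genes were, 0.0791% more positive after diapause and 2.35% more negative. At an unadjusted p below 0.05 there were 12, and DESeq2 called 3 (12.8% of all genes). The member nearest the threshold was the glucose dehydrogenase LOC100648192, at -2.89 ± 0.83 (adjusted p = 0.0526), and next came phosphoglycerate mutase 2 (LOC100651143), at 1.72 ± 0.66 (adjusted p = 0.111). Diapause replicate 1 decided the count: without it alone 15 members were called, and without the 3 libraries 19, 17 of them more positive after diapause and 2 more negative, 54.3% against 36.6% of all genes, of which 17.6% were more positive and 19.1% more negative. That replicate was set apart above by these members' own values, so the larger counts without it are not independent support. Cytoplasmic NADP isocitrate dehydrogenase (LOC100651170), without the 3 libraries, differed by 3.70 (adjusted p = 0.000183), transaldolase (LOC100651996) by 3.03 (0.00114) and phosphoglycerate mutase 2 (LOC100651143) by 2.48 (0.00219). The count was 1 without founder post diapause replicate 2 and 3 without founder post CO2 replicate 1 or 3.

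Founders of the 2 routes were also compared directly. With edgeR 0 of 35 members were called and 0% of all genes, 2 members had an unadjusted p below 0.05, and DESeq2 called 1 (0.211% of all genes). The groups overlapped for every tested member, where 0.29% of all genes did not overlap. That 1 was the glucose dehydrogenase LOC100647448, which had 7.99, 108, 234, 195 and 9.43 CPM in founders post diapause and 3.69, 5.26, 4.68, 12.4 and 4.79 CPM in founders post CO2 (4.14 ± 1.10, edgeR adjusted p = 0.483). A p that misses the threshold does not show that the groups are alike. For hexokinase the log2 difference was -0.28 ± 0.38 and for transaldolase 0.68 ± 0.56.

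Diapausing queens were set against young mated queens to see what the end of the cold looks like in these genes. With all libraries 2 members were higher and 1 lower, 8.57% called, where 5.69% of all genes were called, 3.66% higher and 2.03% lower. The groups did not overlap for 3 members and for 3.03% of all genes, and 1 of those 3, threonine aldolase (LOC100648853), did not pass (-0.32 ± 0.20, adjusted p = 0.343). The alpha subunit of NAD isocitrate dehydrogenase (LOC100642724), of a rate-setting enzyme of the citric acid cycle, had 271, 427, 357, 405 and 460.0 CPM in diapausing queens, all above the 146, 102, 176, 147 and 164 CPM in mated queens. It rose by 1.38 ± 0.24 (adjusted p = 0.0014) and kept that call in every fit that left out 1 library. The oxoglutarate/malate carrier (LOC100649472) had 4.95, 2.08, 2.80, 2.33 and 3.73 CPM in diapausing queens, all below the 16.3, 7.36, 20.2, 43.5 and 10.96 CPM in mated queens. It fell by 2.62 ± 0.43 (adjusted p = 0.00137), and that call too was kept in every such fit. The glucose dehydrogenase LOC100648192 had 13.7, 27.8, 34.0, 225 and 14.0 CPM in diapausing queens and 19.2, 10.3, 12.3, 13.9 and 12.98 CPM in mated queens. Its log2 fold change of 2.17 ± 0.58 (adjusted p = 0.0282) was 0.69 (adjusted p = 0.384) without diapause replicate 4. The call was also lost without mated replicate 3, 4 or 5, and with genetic line as a block in the fit (1.69, adjusted p = 0.208).

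Leaving out diapause replicate 1 changed the count more than leaving out any other single library. The count was then 15, and without the 3 libraries 17, 2 higher and 15 lower, 48.6% where 31.5% of all genes were called, 13.6% higher and 17.9% lower. As that replicate was set apart by these members' own values, the gain is not independent support. By DESeq2 with all libraries it was 8, where 12% of all genes were called. Glycolysis, the citric acid cycle and the pentose phosphate pathway each gave some of those 15. Glucose-6-phosphate isomerase (LOC100643448) changed by -1.90 without the 3 libraries (adjusted p = 0.000332), against -1.21 ± 0.43 with all, and cytoplasmic NADP isocitrate dehydrogenase (LOC100651170) by -3.57 (adjusted p = 2.43e-05), against -1.90 ± 0.70. Transaldolase (LOC100651996) changed by -2.55 (adjusted p = 0.000397), against -1.35 ± 0.57, and phosphoglycerate mutase 2 (LOC100651143) by -1.67 (adjusted p = 0.00405), against -0.91 ± 0.47. The count was 5 without mated replicate 2, and also 5 without both shallow libraries, where 8.41% of all genes were called. Hexokinase had 962, 596, 843, 1731 and 833 CPM in mated queens, a range that held all 5 diapausing queens, and its log2 fold change was 0.32 ± 0.38. Fructose-1,6-bisphosphatase had 904, 16.2, 2972, 2796 and 1705 CPM in mated queens, the 16.2 being the shallow library, and a log2 fold change of 0.60 ± 0.84 (adjusted p = 0.714).

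**Figure D4:**
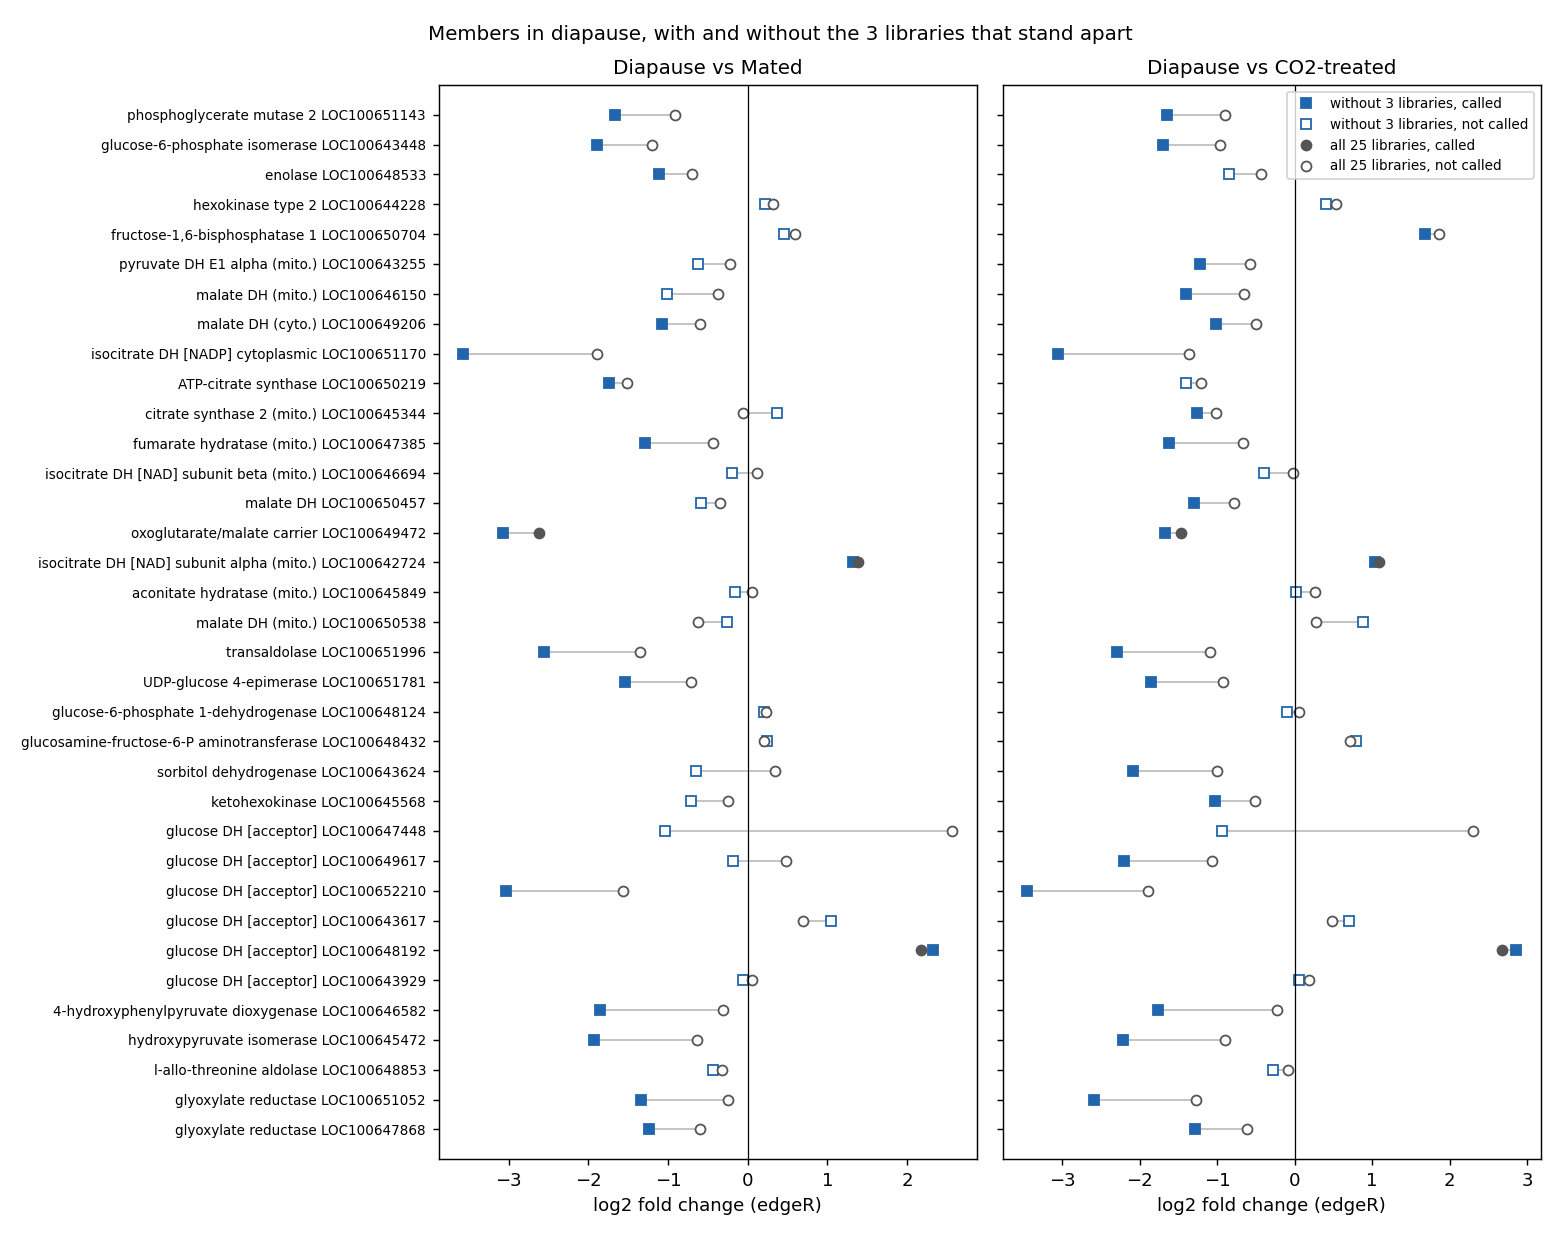
Log2 fold change of each tested member in diapausing queens against mated queens (left) and CO2-treated queens (right), with all 25 libraries (circles) and without the 3 that stand apart (squares), filled where the adjusted p is below 0.05. Leaving out the 3 libraries moves most members to the left, and 15 and 20 members are then lower in diapause.

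Against CO2-treated queens, diapausing queens had 2 members higher and 1 lower, 8.57% called, where 6.43% of all genes were called, 5.64% higher and 0.791% lower. The 3 genes called were the ones called against mated queens, and these comparisons share the diapause libraries. The groups did not overlap for 3 members and for 2.66% of all genes, and 1 of those members, ATP-citrate synthase (LOC100650219), did not pass (-1.21 ± 0.48, adjusted p = 0.12). The alpha subunit (LOC100642724) rose by 1.09 ± 0.24 (adjusted p = 0.00837), again with no overlap. The carrier (LOC100649472) fell by 1.47 ± 0.43 (adjusted p = 0.0434), and that call was lost on leaving out any of 14 single libraries. LOC100648192 rose by 2.68 ± 0.60 (adjusted p = 0.0101), and by 1.19 (adjusted p = 0.101) without diapause replicate 4, which ended the call, as did leaving out CO2-treated replicate 4. The count was 19 without diapause replicate 1, and 1 without diapause replicate 4 or CO2-treated replicate 4. The share of all genes called in those fits is not given here. Without the 3 libraries 3 were higher and 20 lower, 65.7% where 36.5% of all genes were called, 15.9% higher and 20.6% lower. This gain too rests on a replicate set apart by these members' own values. Fructose-1,6-bisphosphatase (LOC100650704) joined the higher ones, at 1.68 (adjusted p = 0.0248), and sorbitol dehydrogenase (LOC100643624) was among the lower ones, at -2.09 (adjusted p = 0.000242).

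CO2-treated queens were set against mated queens to see these genes a day after the gas. With edgeR 0 of 35 members were called, where 0.395% of all genes were, 3 members had an unadjusted p below 0.05, and DESeq2 called 0 (1.11% of all genes). The groups overlapped for every tested member, where 0.975% of all genes did not overlap. The glucose dehydrogenase LOC100649617 had 101, 81.2, 53.1, 92.5 and 210.2 CPM in CO2-treated queens and 22.9, 64.8, 30.2, 36.9 and 34.0 CPM in mated queens, a log2 fold change of 1.54 ± 0.52 (adjusted p = 0.38). Sorbitol dehydrogenase (LOC100643624) had 1342, 1133, 155, 917 and 1962 CPM in CO2-treated queens and 552, 158, 395, 408 and 669.9 CPM in mated queens, a log2 fold change of 1.33 ± 0.55 (adjusted p = 0.714). The shallow CO2-treated replicate 3 was the lowest of its group for both genes, and the shallow mated replicate 2 was the highest of its group for LOC100649617 and the lowest for sorbitol dehydrogenase. Without the 3 libraries these 2 members were called, at 2.02 (adjusted p = 0.0304) and 1.44 (adjusted p = 0.0416), both higher, 5.71% where 1.56% of all genes were, 0.317% higher and 1.24% lower. The carrier (LOC100649472) was at -1.15 ± 0.41 (adjusted p = 0.461), with 7.53, 10.8, 12.5, 9.43 and 5.68 CPM in CO2-treated queens and the mated values above.

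Over the 5 groups together, an F test called 25 of the 35 members, 71.4%, where 79.0% of all genes were called. The smallest p belonged to the oxoglutarate/malate carrier (LOC100649472, adjusted p = 3.37e-06), whose group medians ran 2.87, 2.87, 2.80, 9.43 and 16.3 CPM in founders post diapause, founders post CO2, diapausing, CO2-treated and mated queens. The 10 members that did not pass included ketohexokinase (LOC100645568, adjusted p = 0.184), glucose-6-phosphate 1-dehydrogenase (LOC100648124, 0.166) and malate dehydrogenase LOC100650457 (0.495).

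Neighbouring genes of these pathways that the rule did not name were listed by product: 35 genes, of which 33 were tested. In founders post diapause 17 were higher and 7 lower than in diapausing queens, 72.7% called, where 80.9% of all genes were called. That was 51.5% higher and 21.2% lower, against 40.2% and 40.6% of all genes. The median log2 fold change was 1.255, against 0.276 over all genes. Without the trehalose transporters named Tret1, 10 of 16 were higher and 2 lower, 75% called. In founders post CO2 7 of the 33 were higher and 3 lower than in CO2-treated queens, 30.3% called, where 28.3% of all genes were called. That was 21.2% higher and 9.09% lower, against 14.8% and 13.6% of all genes, with a median of 0.411 against 0.069. Glyceraldehyde-3-phosphate dehydrogenase (LOC100648830), of the middle of glycolysis, rose by 1.86 ± 0.40 after diapause (adjusted p = 0.000326) and by 1.22 ± 0.39 after CO2 (adjusted p = 0.0257). L-lactate dehydrogenase (LOC100649579) rose by 2.43 ± 0.80 after diapause (adjusted p = 0.00861) and by 2.81 ± 0.82 after CO2 (adjusted p = 0.0168). Leaving out 1 library ended the call after CO2 in 4 fits for glyceraldehyde-3-phosphate dehydrogenase and 1 for lactate dehydrogenase. The list also held another glyceraldehyde-3-phosphate dehydrogenase (LOC100651765) and a triosephosphate isomerase (LOC100645419), whose values are not given singly here. Of the pentose phosphate pathway, 6-phosphogluconolactonase (LOC100647184) rose by 2.27 ± 0.38 after diapause and ribulose-phosphate 3-epimerase (LOC100646306) by 2.15 ± 0.40. The transketolase LOC100649799 rose by 1.92 ± 0.46 and 6-phosphogluconate dehydrogenase (LOC100645214) by 1.45 ± 0.40. Their values after CO2 are not given here. Genes named singly were picked from the list and do not stand for it. Its trehalases, succinate dehydrogenase and oxoglutarate dehydrogenase genes are not given singly either. PEPCK, which makes phosphoenolpyruvate for gluconeogenesis, fell by 6.18 ± 1.14 after diapause (adjusted p = 8.89e-05) and it fell by 6.42 ± 1.16 after CO2 (adjusted p = 0.000527).

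Since no member was named for glycogen, 3 genes whose products act on it or lead to it were added after the data had been seen. The 4-alpha-glucanotransferase LOC100647498, an activity that glycogen debranching enzyme carries, had 16.4 to 59.9 CPM in founders post diapause and 65.2 to 276 CPM in diapausing queens. It fell by 2.11 ± 0.40 (adjusted p = 0.000106). After CO2 it had 45.5 to 150.4 CPM in founders and 57.1 to 152 CPM in CO2-treated queens, a log2 fold change of 0.08 ± 0.38. Its route difference of -2.19 ± 0.55 passed (adjusted p = 0.0353), and that call was lost on leaving out any of 12 single libraries. Phosphoglucomutase-2 (LOC100648849) rose by 1.71 ± 0.46 after diapause (adjusted p = 0.00221) and phosphoglucomutase (LOC100650132), which links glucose-1-phosphate to glucose-6-phosphate, by 0.95 ± 0.41 (adjusted p = 0.0353, lost on leaving out any of 13 single libraries).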

How the data were processed

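RNA was sequenced from 25 queens, separate individuals, in 5 groups of 5. The deposited table holds the authors' raw read counts for 22679 intervals. The submitters' processing notes name Trimmomatic, TopHat and DESeq without versions, and the sources used here do not give the genome build, the read counter or strand use. Counts were summed per gene ID to 3861 genes, and 0 columns of values were left unused. Python 3.11.15, numpy 2.4.6, pandas 2.3.3 and matplotlib 3.10.9 were used with R 4.3.3.

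All 25 libraries were fitted together by group in edgeR 4.0.16 (TMM factors of 0.605 to 1.29, quasi-likelihood test, 20 residual degrees of freedom). Low genes were removed by filterByExpr (count minimum 10, total minimum 15), which took out 68. P-values were adjusted by Benjamini-Hochberg over the 3793 genes tested, and called means an adjusted p below 0.05. The common dispersion corresponded to a coefficient of variation of 51.4% between queens. Totals of 534806 to 4057781 counts set the precision, and counting error is least favourable in the 2 shallow libraries. CPM per kb divides by interval length. The scripts were tested on simulated counts.

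Members were chosen by words in the product name, and roles were assigned by hand from that name. The members, roles and lists were chosen with earlier results of these data known. Values by library are given for the members called in each comparison, at most 8 of the smallest p, and for 1 enzyme per step, and others by range. Marker lists were picked by product name, leaving out products that only share a word with a marker. The names table of RefSeq matched 3534 genes and 35 members, and the member without a match was the glucose dehydrogenase LOC100643929. Alternatives were DESeq2 1.42.0, its size factors in edgeR, no filter, genetic line as a replicate block, leaving out each library, and leaving out the 2 shallow libraries with and without diapause replicate 1.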

Additional observations from a re-analysis of the deposited data

Results flagged for a closer look

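Within each group of 5 queens, a library was marked for a member when its gap to the nearest other library exceeded 0.71 of the group's range of log2(CPM + 1). This was tried on 180 sets of values, and chance marks about 1 in 20 such sets. It marked 21, and 15 of them came from the 2 shallow libraries or replicate 1 of the diapause group.

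That diapause replicate was marked, each time as the highest of its group, for 11 members. It was also the highest for other members that the rule did not mark, such as enolase and phosphoglycerate mutase 2. It had 569.2 CPM of the pyruvate dehydrogenase subunit LOC100643255, where the other 4 had 186.8 to 235.8, 1414 CPM of sorbitol dehydrogenase LOC100643624 (301.2 to 403.8) and 624.9 CPM of mitochondrial malate dehydrogenase LOC100646150 (169.1 to 246.0). It had 1221 CPM of cytoplasmic malate dehydrogenase LOC100649206 (524.4 to 655.8), 479.8 CPM of fumarase LOC100647385 (101.7 to 144.1) and 545.9 CPM of 4-hydroxyphenylpyruvate dioxygenase LOC100646582 (40.3 to 80.8). Its UDP-glucose 4-epimerase LOC100651781 stood at 194.3 CPM (32.4 to 51.6) and its glyoxylate reductase LOC100651052 at 155.9 CPM (23.9 to 31.6). Its glucose dehydrogenases stood at 141.9 CPM for LOC100647448 (0.932 to 5.43), 7.28 CPM for LOC100650352 (0.311 to 1.16) and 1776 CPM for LOC100652210 (132.6 to 224.2).

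CO2-treated replicate 3 was the lowest of its group for fructose-1,6-bisphosphatase LOC100650704, at 18.7 CPM where the others had 641.5 to 1442, for glucose-6-phosphate isomerase LOC100643448, at 268.6 CPM (742.0 to 956.9), and for cytoplasmic NADP isocitrate dehydrogenase LOC100651170, at 195.2 CPM (1103 to 2000). Mated replicate 2 had 16.2 CPM of fructose-1,6-bisphosphatase, where the other mated queens had 903.6 to 2972.

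Other single libraries stood out for 1 member each, or for 2 in founder post CO2 replicate 1. That founder had 1374 CPM of hydroxypyruvate isomerase LOC100645472, where the others had 85.9 to 179.1, and 19.3 CPM of malate dehydrogenase LOC100650457 (67.1 to 81.9). Founder post CO2 replicate 4 had 12.4 CPM of LOC100647448 (3.69 to 5.26) and mated replicate 3 had 7.91 CPM of it (4.10 to 4.59). Founder post diapause replicate 4 had 3.31 CPM of the glucose dehydrogenase LOC100648192 (8.46 to 9.19), and founder post diapause replicate 1 had 0.940 CPM of the oxoglutarate/malate carrier LOC100649472 (2.38 to 3.06).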

How the results depend on the processing

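The counts of members called moved by over 1.5 times as follows. Diapausing against mated queens had 3 with all libraries, 8 by DESeq2, 5 when the 2 shallow libraries were left out and 17 when diapause replicate 1 was left out too. Without those 3 libraries, CO2-treated against mated queens had 2 in place of 0, diapausing against CO2-treated queens 23 in place of 3, and the route difference 19 in place of 0. By DESeq2 the founders differed in 1 member and the route difference in 3, in place of 0 each. Over fits that each left out 1 library, the counts ran 2 to 15 for diapausing against mated queens, 0 to 0 for CO2-treated against mated queens, 1 to 19 for diapausing against CO2-treated queens, 24 to 31 for founders post diapause against diapausing queens, 5 to 11 for founders post CO2 against CO2-treated queens, 0 to 0 between founders, 0 to 15 for the route difference and 25 to 32 for the F test. Other counts stayed within 1.5 times. Each alternative was set against the edgeR fit of all 25 libraries, and no value called in either had opposite signs between them. Alternatives were not set against each other. LOC100647448, for diapausing against mated queens, was called by DESeq2 at 2.596 (adjusted p = 0.0456). Without the 3 libraries it was -1.035 in edgeR (adjusted p = 0.387). Of 245 values by member DESeq2 gained 13 calls. The 2 shallow libraries' absence gained 4 and lost 3, and the absence of all 3 gained 58 and lost 2. The cause of these shifts was not tested.

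The correlation of same-line pairs was over 0.1 in 3 of 4 pairs for diapausing against mated queens and 2 of 4 for CO2-treated against mated queens. It was so in 4 of 5 for diapausing against CO2-treated queens and 1 of 5 for founders post diapause against diapausing queens. For founders post CO2 against CO2-treated queens it was 3 of 5, and between founders 2 of 5. In no comparison did every pair pass. The same-line medians in that order were 0.283, 0.334, 0.363, -0.218, 0.103 and 0.0669. For pairs of other lines they were -0.114, -0.1085, -0.0866, 0.109, -0.0834 and 0.00884. Same-line pairs were thus more alike by median in all but the comparison of founders post diapause with diapausing queens. With line as a replicate block the counts were 2, 0, 4, 31, 8, 0, 0 and 30 in the order of the ranges above. Over all genes the block gave 51, 0, 130, 3025, 751, 0, 3 and 2909 calls in that order. Without the block these all-gene counts were 216, 15, 244, 3067, 1075, 0, 92 and 2996. The block ended the calls of LOC100648192 for diapausing against mated queens and of LOC100646150 for founders post CO2 against CO2-treated queens. It added LOC100647448 for founders post diapause against diapausing queens and LOC100652210 for diapausing against CO2-treated queens (-2.36, adjusted p = 0.0459). Shallow libraries limit low members most.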
